A study of Mus musculus with 2 samples.

Results

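The genes described here are interferon-induced genes and the receptors, sensors and transcription factors that regulate them, measured in primary mouse osteoblasts with and without the kinase inhibitor PP1. They were chosen by name, from a list drawn up with earlier results of these data known. All probe sets were taken that the platform annotation gives to exactly 1 of 41 listed genes. This found 65 probe sets for 39 of the 41 genes, out of 34945 probe sets and 18193 genes named in this way on the array. Ifi44 had no probe set under its name alone in the annotation used here, and Isg15 shared its probe set with Gm9706. The cells were osteoblasts, which form bone, cultured from calvarial bones of 7-day-old CD1 mice, an outbred strain. They were starved in albumin medium for 24 h and then given 2 µM PP1, an inhibitor of c-Src and related tyrosine kinases, or the vehicle DMSO, for 24 h. There was 1 array for each of these conditions and no replicate, so no test between them was possible, no p-value is given and every value describes these 2 arrays. Whether 1 culture or a pool of several stood behind each array is not given in the sources used here.

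Interferons are secreted proteins that cells release on sensing viral nucleic acid. Type I interferons bind the receptor made of Ifnar1 and Ifnar2, and interferon gamma binds the one made of Ifngr1 and Ifngr2. Both receptors signal through JAK kinases to STAT proteins, and type I signalling assembles a complex that holds STAT2 and IRF9 and binds a promoter sequence called the interferon-stimulated response element (ISRE). Interferon gamma acts mainly through paired STAT proteins at a different, palindromic STAT site. The products block steps of viral growth, break down foreign RNA or attack the membranes around intracellular pathogens. In bone, type I interferon is known to restrain the formation of osteoclasts, the bone-resorbing cells.

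The promoters of members were searched for the ISRE core, which is GAAA, any 2 bases and GAAA again, on both strands. On the opposite strand it reads TTTC, any 2 bases and TTTC. The window was the 250 bases before and the 50 after each start annotated by RefSeq on assembly GRCm38.p6. Stretches from 9 promoters are shown, because they carry the element and their genes run from 0.08 to 1.94 in log2 ratio, the range of the measured members with a match. Each is written 5′ to 3′ on the strand of its gene, reaches up to 30 bases to either side of the matches, and stops before the annotated start. Capitals mark the ISRE core matches. The first 6 belong to genes that were at least 2-fold higher with PP1.
Ifit1: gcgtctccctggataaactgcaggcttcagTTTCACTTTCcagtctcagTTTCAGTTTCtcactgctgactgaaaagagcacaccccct
Ifit3: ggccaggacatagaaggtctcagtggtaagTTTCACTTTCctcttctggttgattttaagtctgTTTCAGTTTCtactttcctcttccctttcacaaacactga
Gbp2: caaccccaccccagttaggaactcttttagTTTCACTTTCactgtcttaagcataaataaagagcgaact
Gbp3: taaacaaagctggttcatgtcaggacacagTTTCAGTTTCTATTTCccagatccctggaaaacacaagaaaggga
Stat2: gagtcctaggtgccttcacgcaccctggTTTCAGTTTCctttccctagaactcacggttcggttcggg
Bst2: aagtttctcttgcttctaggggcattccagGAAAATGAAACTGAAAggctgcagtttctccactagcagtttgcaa
The other 3 belong to genes with a smaller log2 ratio or one near 0.
Igtp: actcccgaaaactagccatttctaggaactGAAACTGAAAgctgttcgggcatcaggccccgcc
Irgm1: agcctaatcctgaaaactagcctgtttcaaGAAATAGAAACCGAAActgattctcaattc
Oas1a: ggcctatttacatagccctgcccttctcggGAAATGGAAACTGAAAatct
On GRCm38.p6 the Ifit1 stretch lies at chr19:34640755-34640843 (plus strand) and that of Ifit3 at chr19:34583343-34583446 (plus strand). The Gbp2 stretch lies at chr3:142620574-142620643 (plus strand), that of Gbp3 at chr3:142559969-142560043 (plus strand) and that of Stat2 at chr10:128270248-128270315 (plus strand). The Bst2 stretch lies at chr8:71537557-71537632 (minus strand) and that of Igtp at chr11:58199492-58199555 (plus strand). Irgm1 has its stretch at chr11:48871421-48871480 (minus strand) and Oas1a at chr5:120907526-120907575 (minus strand). All 9 lie upstream of the annotated start. In Gbp3, Bst2, Irgm1 and Oas1a the matches overlap each other, so that the GAAA unit (TTTC on the opposite strand) occurs 3 times in a row, while Ifit1 and Ifit3 hold a pair of separate matches.

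With PP1 most of the measured interferon-induced genes had a higher signal than with DMSO. Among the largest differences were those of the guanylate-binding proteins Gbp6 and Gbp3, the immunity-related GTPase Iigp1, the antiviral genes Ifit3 and Ifit1, and Stat2. The receptors lay near the bulk of genes. Signals are linear array intensities, with the PP1 array multiplied by 1.68 so that both arrays have the same trimmed mean. A floor of 31.7, the median signal over the arrays, replaced any lower signal, and the log2 ratio is PP1 minus DMSO. The brightest probe set, by mean log2 signal, stands for a gene. Of the 39 genes, 38 were measured, that is, above the floor on at least 1 array, and Mx1 was below it on both. Among these 38 genes, 34 had a log2 ratio above 0, against 51.1% of the 12133 measured genes of the array. At least 2-fold higher with PP1 were 10 of the 38, against 3.02% of measured genes. At least 2-fold lower were 0, near the 1.55% of measured genes. At 1.5-fold the counts were 24 higher, against 10.6% of measured genes, and 0 lower, against 7.38%. As the members were listed with earlier results of these data known, these counts describe them and test nothing. The median log2 ratio was 0.73 over the 38 members, with quartiles of 0.28 and 1.01, and 0.01 over all measured genes. Mx2 passed the floor only through the PP1 array and so could only be above 0. Over the 37 members above the floor on both arrays, 33 were above 0 and 10 at least 2-fold higher. Of all genes above it on both, 49.5% and 2.73% were. This filter was added after seeing the data.

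The directions are relative to the bulk of genes. As deposited, the PP1 array was dimmer, with a trimmed mean of 94.1 against 158.1 on the DMSO array, and the median log2 ratio of all measured genes was -0.71, while that of 18 hybridization control probe sets was 0.09. Without scaling, 3 members were at least 2-fold higher and 2 at least 2-fold lower, and the members' median was -0.02. Relative to the shifted bulk, the count of 2-fold higher members was again 10, but not of the same genes. Bst2 fell to 0.98, and Mx2 rose to 1.19. With DMSO, Mx2 was under the floor, which was lower without scaling (24.7). In place of a replicate error, the log2 ratio varied between probe sets of the same gene with an SD of 0.41 over 4745 genes, and of 0.47 over the 12 members for which several probe sets cleared the floor with PP1 and with DMSO alike. This spread covers error between probe sets and not between cultures. In RNA from a whole culture, fewer cells of a type and less RNA per cell cannot be told apart. Of the 58 member probe sets above the floor, 51 had a log2 ratio above 0, against 55.0% of all such probe sets, and 19 were at least 2-fold higher, against 4.14%. None of the 58 was at least 2-fold lower, against 1.44%. Of the 10 genes at least 2-fold higher, 5 rested on 1 probe set. Another 4 had all their probe sets at least 2-fold higher, and for Dhx58 the probe sets disagreed.

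**Figure D1:**
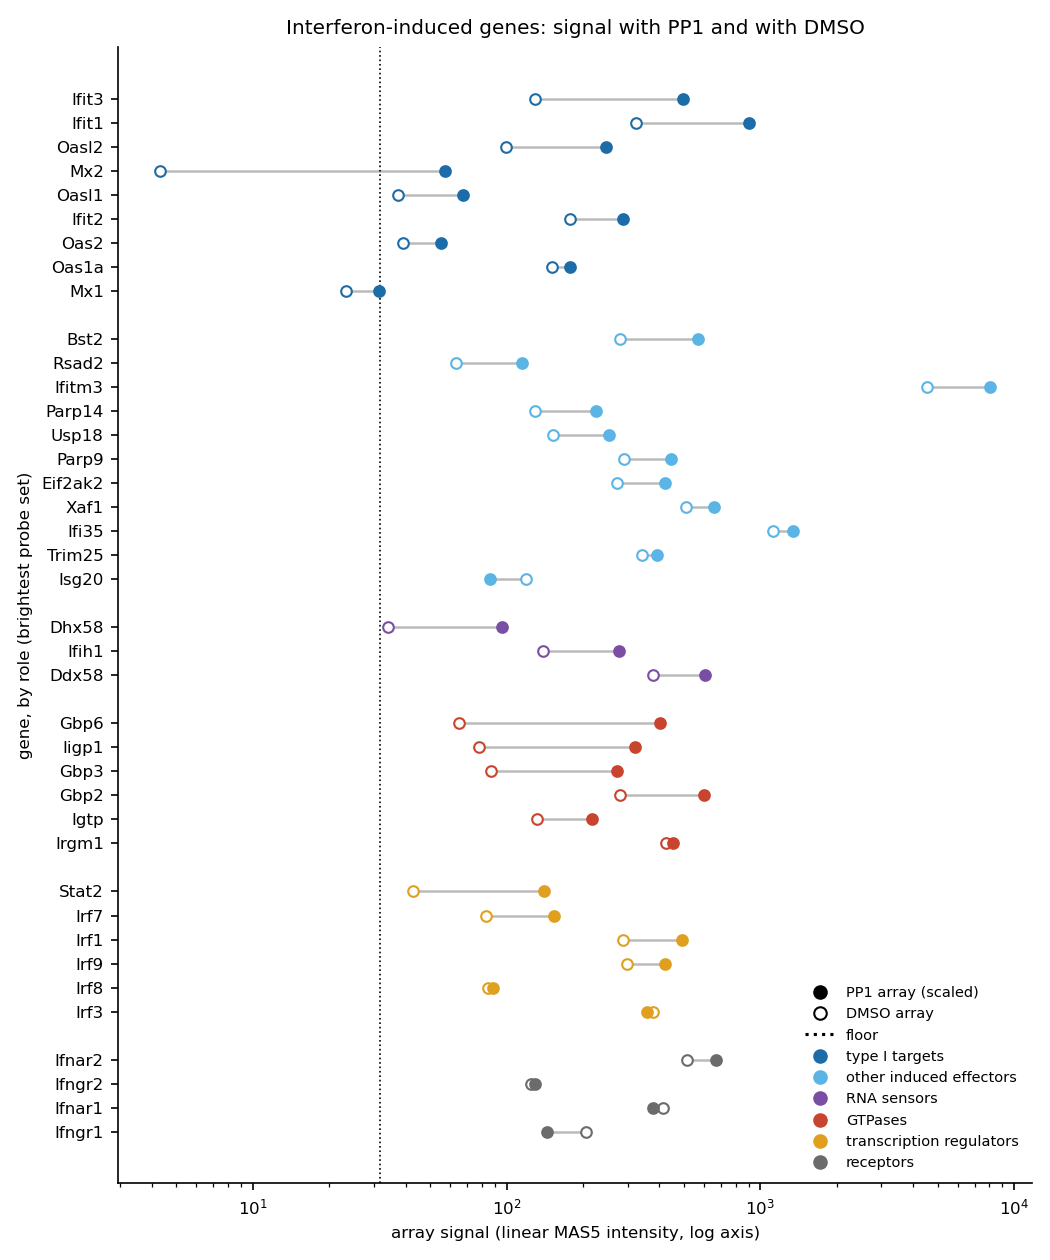
Array signal of the 39 member genes on a log axis, with filled circles for the PP1 array (scaled) and open circles for the DMSO array, 1 row per gene and 1 colour per role. The dotted line is the floor of 31.7. Filled circles lie right of open ones for all GTPases and type I targets, and left of them for Isg20, Irf3, Ifnar1 and Ifngr1.

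Among the type I targets, all 8 measured genes had a log2 ratio above 0, against 51.1% of all measured genes. At least 2-fold higher were 3 of them, against 3.02%, and the median was 0.85. Without Mx2, which passed the floor only through the PP1 array, 7 of 7 were above 0 and 3 at least 2-fold higher. Of all genes above the floor on both arrays, 49.5% were above 0 and 2.73% at least 2-fold higher. The Ifit proteins act on viral RNA, and Ifit1 binds RNA whose cap lacks the host's methyl marks. Ifit3 had a signal of 496.6 with PP1 and 129.0 with DMSO, a 3.85-fold difference. Ifit1 had 901.5 with PP1 and 324.7 with DMSO, or 2.78-fold. Ifit2 had 287.9 with PP1 against 177.2 with DMSO, a log2 ratio of 0.70. So the 3 Ifit genes pointed the same way, with Ifit2 under the 2-fold line. Each rested on 1 probe set, and the close copy Ifit3b, which had no probe set under its own name here, may share signal with Ifit3.

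The Oas proteins make a short oligoadenylate that switches on an RNA-degrading enzyme, and the related Oasl proteins act in other ways. Oasl2 had a signal of 247.6 with PP1 and 99.5 with DMSO, 2.49-fold higher. Oasl1 had 67.1 with PP1 and 37.3 with DMSO, close to the floor. Oas1a differed little, with 178.3 with PP1 and 150.8 with DMSO (log2 ratio 0.24). Its close copy Oas1g may share that signal. Oas2 was dim on both arrays, with 55.1 and 39.0 (0.50). The Mx proteins are GTPases that trap viral components. Mx2 had 57.4 with PP1 and was under the floor with DMSO, which makes its log2 ratio of 0.86 a lower bound. It passed the floor only through the PP1 array and so could only have a ratio above 0. Mx1 had 31.4 and 23.2, both below the floor.

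Among the other induced effectors, 10 of the 11 measured genes had a log2 ratio above 0, against 51.1% of all measured genes. At least 2-fold higher was 1 of the 11, against 3.02%, and the median was 0.63. With 1 gene, this count is not set apart from that share. Bst2, also called tetherin, which holds budding virus at the cell surface, had a signal of 567.7 with PP1 and 280.6 with DMSO. Its log2 ratio of 1.02 is just past the 2-fold line. Ifitm3, which blocks viral entry from endosomes, was bright on both arrays, with 8074 with PP1 and 4556 with DMSO (0.83). Usp18, which removes Isg15 from proteins and dampens receptor signalling, had 254.0 with PP1 and 152.7 with DMSO (0.73).

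The ADP-ribosylation genes Parp9 and Parp14 stood at 0.63 and 0.80. Parp14 had a signal of 225.6 with PP1 against 129.3 with DMSO, and Parp9 had 446.4 against 289.2. Rsad2, or viperin, which makes a chain-terminating nucleotide, had 115.6 with PP1 and 63.5 with DMSO (0.86), while its second probe set, at the floor, gave -0.08. Eif2ak2, the RNA-activated kinase PKR that halts translation, stood at 0.62 by its brightest probe set, with 419.4 with PP1 and 272.3 with DMSO. Its other probe sets gave more, 1.18 and 1.66, the higher of these from signals of 489.7 with PP1 and 154.8 with DMSO. All 3 PKR probe sets were thus higher with PP1, and the size depended on the probe set. Xaf1, a pro-apoptotic protein, stood at 0.36, and the ubiquitin ligase Trim25, which acts with the sensor Ddx58, at 0.20 with probe sets from 0.06 to 0.46. Ifi35 stood at 0.26, with probe sets up to 0.60. The exception was the exonuclease Isg20, with 86.3 with PP1 and 119.2 with DMSO (-0.47). Isg15, a ubiquitin-like modifier, could be read only from the probe set it shares with Gm9706. That probe set had 500.6 with PP1 and 387.9 with DMSO (0.37) and entered no count of members.

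The 3 cytoplasmic RNA sensors all had log2 ratios above 0, against 51.1% of measured genes. Ifih1 (MDA5), which detects long double-stranded RNA, had a signal of 276.6 with PP1 and 139.8 with DMSO, or 0.98. Ddx58 (RIG-I), which detects RNA ends, had 604.7 with PP1 and 378.0 with DMSO, or 0.68. Its other probe sets gave 1.05 and 0.13, the lower of these from signals near the floor. Dhx58 (LGP2), which modulates both, had 96.3 with PP1 and 34.2 with DMSO, 2.82-fold, but its second probe set above the floor gave -0.13 from 39.7 and 43.4. The sensors thus lay above 1.5-fold by their brightest probe sets, with Dhx58 not settled between its probe sets.

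Of the 6 interferon-inducible GTPases, 4 were at least 2-fold higher, against 3.02% of measured genes. Their median, 1.37, was the highest of the 6 roles. These large GTPases coat the vacuoles of intracellular pathogens. Gbp6 had a signal of 402.5 with PP1 and 65.2 with DMSO, 6.18-fold higher and rank 3 of 12133 measured genes from the top. Its other probe set agreed in direction, with 178.0 with PP1 and 43.4 with DMSO (log2 ratio 2.04). Gbp3 had 271.9 with PP1 and 87.1 with DMSO, 3.12-fold. Gbp2 had 601.2 with PP1 and 279.9 with DMSO (1.10) and, by its other probe set, 612.5 and 243.4 (1.33). The 3 guanylate-binding proteins were therefore all more than 2-fold higher, by each of their probe sets. They belong to a family of close copies, so that a probe set may also read a relative.

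Of the immunity-related GTPases, Iigp1 (IRGA6) had a signal of 319.7 with PP1 and 78.1 with DMSO, 4.10-fold, and its other probe set had 189.3 and 42.1 (log2 ratio 2.17). Igtp (IRGM3) had 217.6 with PP1 and 132.3 with DMSO (0.72). Irgm1, like Igtp a regulator that keeps the effector GTPases off the cell's own membranes, had 451.9 with PP1 and 426.7 with DMSO (0.08). The GTPases were therefore not uniform: Iigp1 was far higher, Igtp lay between, and Irgm1 lay with the bulk of genes.

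**Figure D2:**
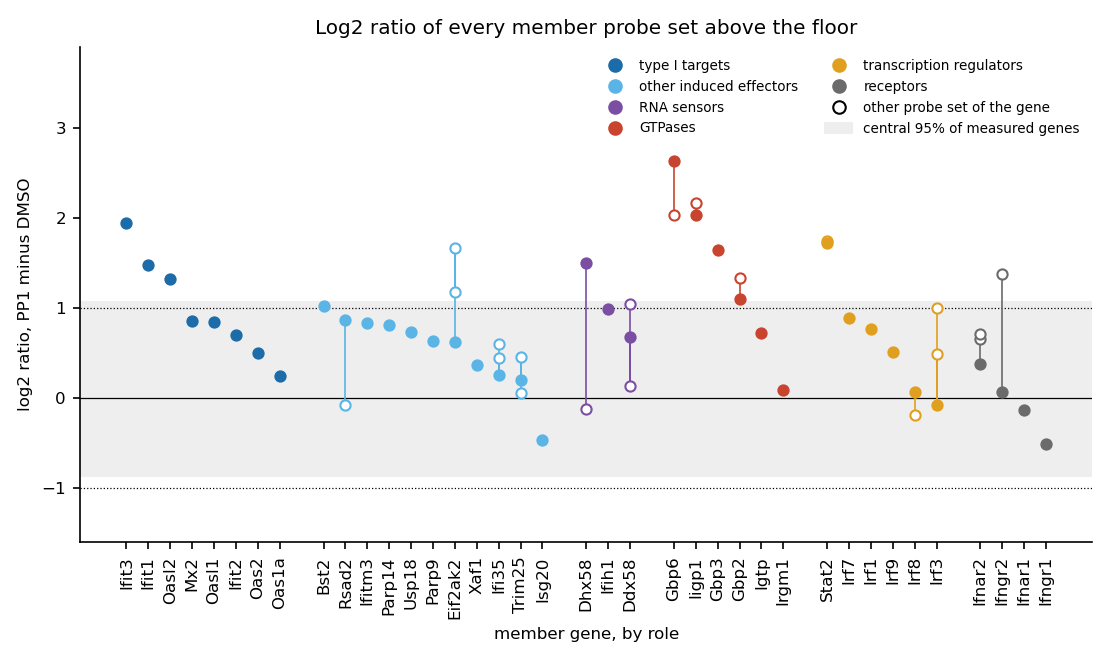
Log2 ratio (PP1 minus DMSO) of each of the 58 member probe sets above the floor, by gene and role. Filled points are the probe set that represents the gene, open points its other probe sets, the grey band holds the central 95% of all measured genes and dotted lines mark 2-fold. All probe sets of Gbp6, Iigp1, Gbp3, Gbp2 and Stat2 lie above 1, and those of Dhx58, Rsad2, Irf3 and Irf8 lie on both sides of 0.

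Of the transcription regulators, 5 of 6 had a log2 ratio above 0, against 51.1% of measured genes, and the median was 0.63. At least 2-fold higher was 1, against 3.02%, a count not set apart from that share. Stat2, the STAT specific to type I signalling, had a signal of 140.4 with PP1 and 42.7 with DMSO, 3.29-fold. Its second probe set gave nearly the same, with 129.8 with PP1 and 38.9 with DMSO (log2 ratio 1.74). The DMSO signals of both lie close to the floor. Irf9, the DNA-binding partner of the STATs, had 423.1 with PP1 and 298.4 with DMSO (0.50).

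Irf7 and Irf1 are interferon regulatory factors that are themselves induced by interferon. Irf7 had a signal of 154.5 with PP1 and 83.3 with DMSO (0.89), and Irf1 had 490.3 and 288.3 (0.77). Irf3, which is made constantly and activated by phosphorylation, had 356.4 with PP1 and 376.1 with DMSO (-0.08), with dimmer probe sets at 0.48 and 1.00. Irf8, a factor of myeloid cells, had 88.1 with PP1 and 84.5 with DMSO (0.06), and -0.20 by its other probe set. Stat2, Irf1, Irf7 and Irf9 thus lay at 0.50 or above, while Irf3 and Irf8 lay near 0 by their brightest probe sets.

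None of the 4 receptor genes was 1.5-fold different by its brightest probe set, and their median log2 ratio was -0.04. Of all measured genes, 10.6% were at least 1.5-fold higher and 7.38% lower. Ifnar1 had a signal of 376.7 with PP1 and 414.3 with DMSO (-0.14). Ifnar2 had 667.5 with PP1 and 513.2 with DMSO (0.38), with other probe sets at 0.65 and 0.70. Ifngr1, the ligand-binding chain for interferon gamma, had 144.1 with PP1 and 206.4 with DMSO (-0.52). The partner chain Ifngr2 gave a different answer by probe set, 0.06 from 130.1 and 124.9, and 1.38 from 173.0 with PP1 and 66.4 with DMSO. For that gene the median over probe sets was 0.72. The receptor chains were therefore mixed in sign, and Ifngr2 was not settled.

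The signals of the interferons themselves were at or near the floor. Of 9 listed ligands, 5 had a probe set of their own, Ifna1, Ifna2, Ifna4, Ifnb1 and Ifng, and 0 of the 5 was above the floor on either array. The other 4 had none. Ifnb1 had 28.1 with PP1 and 22.3 with DMSO, and Ifng 6.32 and 0.761. A pair of probe sets given to several interferon alpha genes at once had 39.1 and 50.3 with PP1 against 7.19 and 6.13 with DMSO, which is above the floor with PP1 and below it with DMSO. Their log2 ratios of 0.30 and 0.67 are lower bounds, and they cannot be given to 1 gene. Interferons secreted by few cells or at an earlier time would not be seen in these values.

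Set side by side, the roles ranked from GTPases (median log2 ratio 1.37, 6 genes) through RNA sensors (0.98, 3 genes) and type I targets (0.85, 8 genes) to transcription regulators (0.63, 6 genes), other effectors (0.63, 11 genes) and receptors (-0.04, 4 genes). The GTPases ran from 0.08 to 2.63, the type I targets from 0.24 to 1.94 and the transcription regulators from -0.08 to 1.72. These ranges overlap almost entirely, and with 3 to 11 genes a role and 1 array a condition the order was not tested. With a floor at the 75th percentile of signals the GTPase median was 0.87, against 0.70 for the type I targets.

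**Figure D3:**
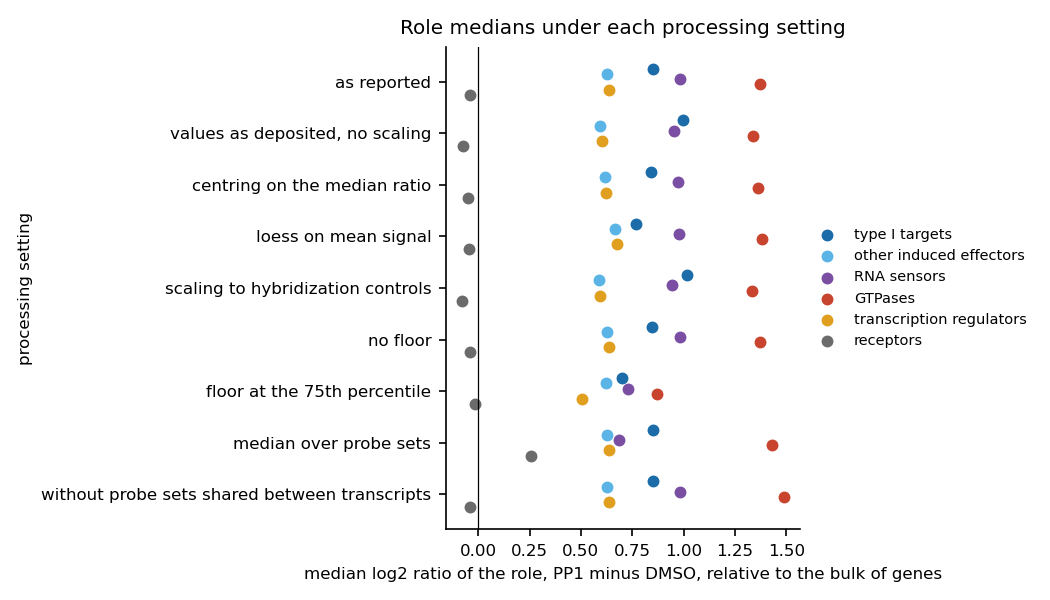
Median log2 ratio (PP1 minus DMSO, relative to the bulk of genes) of each of the 6 roles, 1 colour each, under the reported setting and 8 alternatives of scaling, floor and probe set choice. The GTPase median is the highest and the receptor median the lowest in each setting; the receptor median is 0.26 with the median over probe sets and below 0 in the others.

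Further genes of the pathway were taken from lists of interferon biology. Like the members, they were listed with earlier results of these data known, so their counts are no independent check. Of 60 other interferon-induced genes, 46 were measured, 41 had a log2 ratio above 0, and 15 were at least 2-fold higher against 3.02% of measured genes. None of the 46 was at least 2-fold lower, near the 1.55% of measured genes, and their median was 0.49. Of these genes 5 passed the floor only through the PP1 array and so could only have a ratio above 0, Ddx60 and Sp100 at 2-fold or more among them. Over the 41 genes above the floor on both arrays, 36 were above 0 and 13 at least 2-fold higher, against 49.5% and 2.73% of all genes above it on both. The largest among those that reached 4 times the floor on at least 1 array was Gm4951. It had a signal of 153.6 with PP1 and 41.8 with DMSO, 3.67-fold, and the DMSO signal lies close to the floor. Trim30a, a regulator of innate signalling, stood at 1.51, and the galectin Lgals9 at 1.36, with 762.7 with PP1 and 298.0 with DMSO. The GTPases Irgm2 (1.30) and Gbp7 (1.27) joined the GTPases above, and Trim34a stood at 1.26. Most of the other induced genes were therefore higher with PP1, with a median below that of the members.

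Receptor-proximal genes lay closer to the bulk. Of 17 kinases, STATs and brakes, 13 were measured and 7 were above 0, near the 51.1% of all measured genes. None was at least 2-fold higher or lower, near the 3.02% and 1.55% of all measured genes, and the median was 0.16. Jak1, the kinase shared by both receptors, had a signal of 2738 with PP1 and 1692 with DMSO (0.69, its 3 probe sets from 0.34 to 1.65). Tyk2 (0.26) and Jak2 (-0.17) lay closer to 0. The feedback inhibitor Socs1, itself an interferon target, was at 0.79 as a lower bound, with 54.8 with PP1 and a DMSO signal under the floor. Socs3, which mainly restrains interleukin-6 type receptors, had 704.6 with PP1 and 907.0 with DMSO (-0.36), and all 3 of its probe sets were below 0. Irf2 stood at 0.75, the receptor chain Il10rb at 0.32 and Pias1 at 0.16.

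Among 14 sensing adaptors and kinases, 12 were measured and 7 were above 0, again near the 51.1% of all measured genes, and 1 was at least 2-fold higher, against 3.02%. Their median was 0.14. That gene, outside the naming rule and named after its value was seen, was Tmem173 (STING), with a signal of 195.2 with PP1 and 97.1 with DMSO. Its second probe set gave -0.57. The adaptor Ticam1 stood at 0.79, Tlr4 at 0.19 and Myd88 at -0.18. Neither upstream list held a gene at least 2-fold lower with PP1, near the 1.55% of all measured genes.

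**Figure D4:**
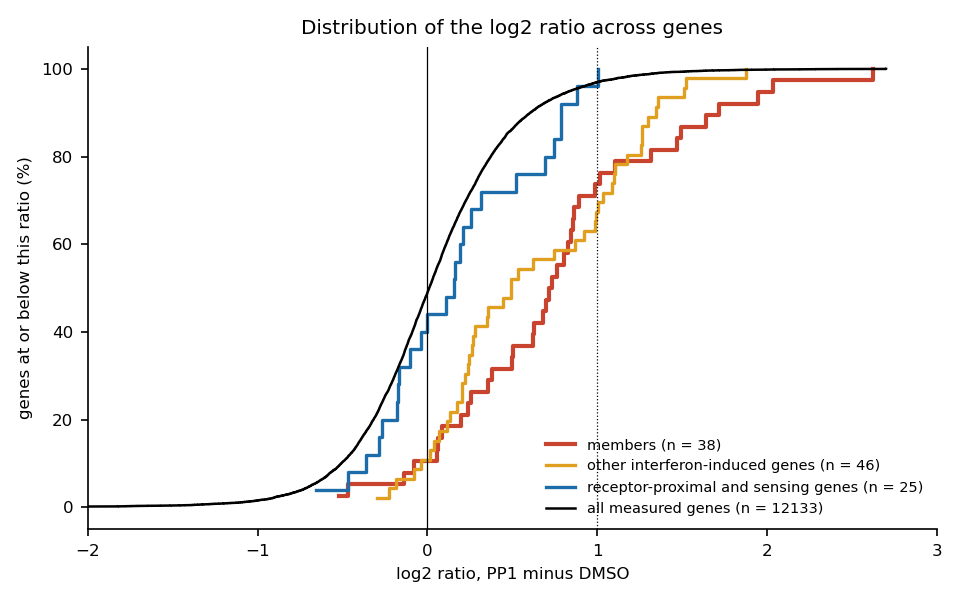
Cumulative share of genes (percent) by log2 ratio, PP1 minus DMSO, for the 38 measured members, 46 other interferon-induced genes, 25 receptor-proximal and sensing genes and all 12133 measured genes. The curves of the members and of the other induced genes lie right of that of all genes, with medians of 0.73 and 0.49 against 0.01.

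The promoter table held 32 of the 41 members, and 15 of the 32 (46.9%) had an ISRE core match on either strand. Such a match occurred in 3.99% of all 27025 genes with a listed promoter, and in 3.55% of the 9797 measured ones. All 4 GTPases and both RNA sensors in the table had a match, as did 3 of 6 type I targets, 5 of 10 other effectors, 1 of 6 transcription regulators and 0 of 4 receptors. Of the 7 members in the table that were at least 2-fold higher, 6 had a match. Oasl2 was the exception, and no match says only that these letters are not in that window. Gbp6 (2.63), Iigp1 (2.03) and Dhx58 (1.49), also at least 2-fold higher, were not in the table, so their promoters were not searched. Measured members with a match had a median log2 ratio of 0.92 (14 genes), and those without one 0.31 (16 genes). The match did not go with a high ratio in each case: Irgm1 and Oas1a carry overlapping matches just before their starts, as printed above, and stood at 0.08 and 0.24.

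The STAT core TTCNNNGAA, a palindrome, was found in 37.5% of the 32 members and in 9.55% of all genes in the table. Measured members with it had a median log2 ratio of 0.50 (12 genes), and those without it 0.86 (18 genes). In Bst2 and Ifitm3 a STAT core match overlapped an ISRE match. Such matches are descriptions of sequence and show no binding.

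**Figure D5:**
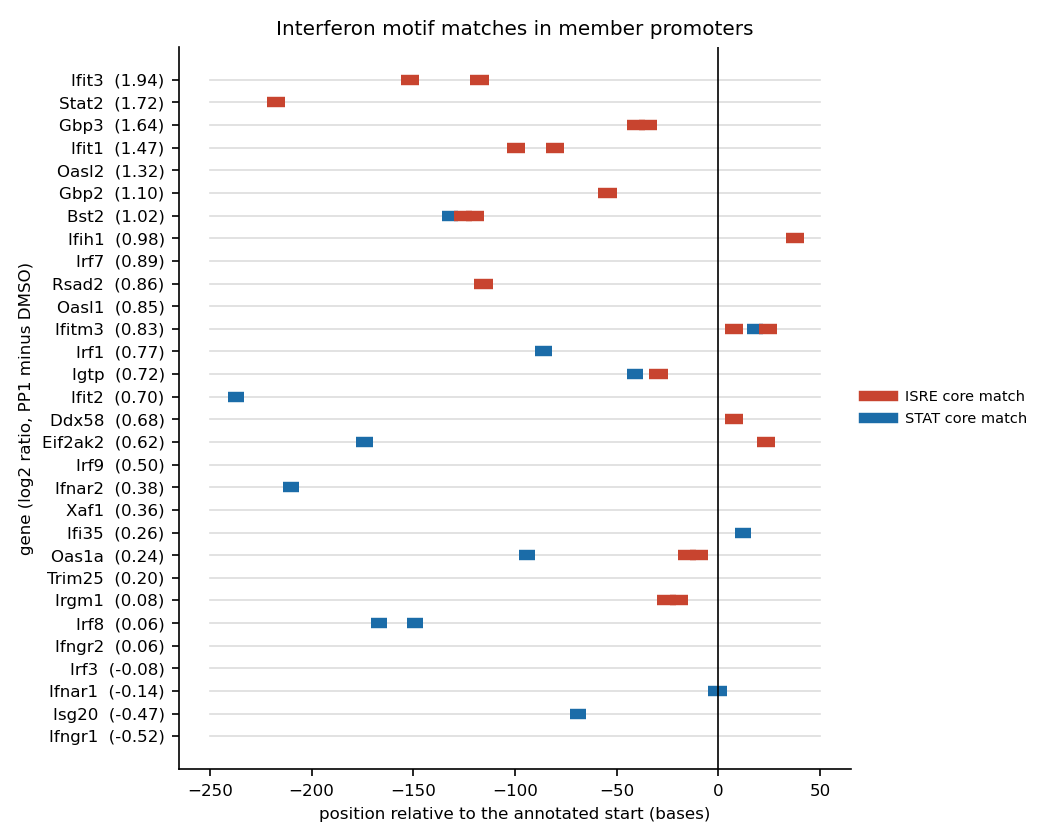
Positions of ISRE core (red) and STAT core (blue) matches from 250 bases before to 50 after the annotated start in the 30 measured members with a promoter in the table, ordered by log2 ratio (in brackets). A gene with several annotated starts has its matches drawn on 1 line, and in Bst2 and Ifitm3 part of a blue match is covered by a red one. Of the 7 genes at the top, 6 carry a red match, and Irgm1 and Oas1a carry one lower down.

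Several members are direct neighbours among protein-coding genes of the same assembly. The Ifit pair Ifit2 and Ifit3 stood at 0.70 and 1.94, and Oasl2 and Oasl1 at 1.32 and 0.85. Gbp7 and Gbp3 stood at 1.27 and 1.64, with Gbp2 (1.10) a gene further on. Within each of these groups the genes shared a direction and differed in size. Of all measured members 34 of 38 were above 0, and of the other induced genes 41 of 46. Genes of these lists would thus mostly share a direction whether neighbours or not. Igtp and Irgm2 stood at 0.72 and 1.30, and Rsad2 and Cmpk2, which supplies nucleotides for Rsad2's reaction, at 0.86 and 1.26. The neighbours Parp14, Dtx3l and Parp9 stood at 0.80, 0.24 and 0.63, and Ifitm2, Ifitm1 and Ifitm3 at 0.99, 0.92 and 0.83. Cmpk2, Dtx3l, Ifitm1 and Ifitm2 are outside the naming rule and were named, as neighbours of members, after their values were seen. The receptor cluster of Ifnar2, Il10rb, Ifnar1 and Ifngr2 stood at 0.38, 0.32, -0.14 and 0.06.

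Cell type markers were read on the same arrays. Of 7 named osteoblast markers 6 were measured and 4 had a log2 ratio above 0, with a summed signal of 33309 with PP1 and 24535 with DMSO. Col1a1, the main bone collagen chain, had 9931 with PP1 and 7558 with DMSO, and Alpl, the bone phosphatase, 242.3 and 187.5. The late matrix gene Ibsp was lower, with 37.7 with PP1 and 159.1 with DMSO (-2.08). The transcription factor Sp7 was lower too, with 53.3 with PP1 and 71.6 with DMSO (-0.43), and the osteocyte marker Dmp1 was below the floor on both arrays. Osteoblast markers were thus present on both arrays and were mixed in sign. Macrophages also express many of the members. Of 15 macrophage markers 14 were measured and 9 had a log2 ratio above 0, with a median of 0.08 and a summed signal of 17869 with PP1 and 15345 with DMSO. The defining receptor Csf1r stood at -0.01 and Lyz1 at 0.10. The 14 markers ran from -0.76 (C1qb) to 1.11 (Mrc1), with C1qa (-0.56) and Tyrobp (-0.15) also below 0 and Cd68 at 0.73. They were thus mixed in sign. All 10 named markers of T, B and NK cells were below the floor on both arrays, with a summed signal of 92.5 with PP1 and 96.6 with DMSO. Of 8 dendritic cell markers 5 were measured, with a median of -0.21 and a summed signal of 1225 with PP1 and 1213 with DMSO, most of it from Tcf4, which other cells express too. The plasmacytoid marker Siglech had 34.9 with PP1 and 27.4 with DMSO. Of 7 endothelial markers 3 were measured, with a summed signal of 179.6 with PP1 and 120.1 with DMSO. The part of these cells in the members' ratios was not tested. For RNA quality, control probe sets at the 3′ and 5′ ends of a transcript were compared: their log2 signal ratio, PP1 minus DMSO, was -0.51 for Gapdh and 0.14 for Actb. Its part in the results was not tested.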

How the data were processed

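The deposited values are array signal intensities, 1 for each probe set on each of the 2 arrays, made with MAS5 per the submitters' processing notes; the sources used here do not give its version, target scaling or genome build. The authors' labels' protocols state Trizol extraction and biotinylated cRNA. Groups were taken from the sample titles. Here the PP1 array was scaled by 1.68 to equal trimmed means (2% at each end), floored at 31.7 and put on the log2 scale, as described with the results. Gene names came from the platform annotation. They were brought up to date, by gene identifier, with a RefSeq table of GRCm38.p6, which matched 34741 of 34945 probe sets with 1 gene. The 932 with several genes entered no count of genes.

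The members and lists were chosen with earlier results of these data known. The text names all members and, per pathway list, up to 6 genes by size of log2 ratio among those that reach 4 times the floor on an array and whose probe sets agree in sign, plus Jak1, Jak2, Tyk2, Socs1, Socs3, Ifnb1 and Ifng; a further gene is not reported here. Tmem173, Ddx60, Sp100, Cmpk2, Dtx3l, Ifitm1 and Ifitm2 fall outside this rule and were named after their values were seen. The number of arrays limits the precision. The steps were tested on simulated data. The alternatives were other scalings (none, median, loess, hybridization controls), other floors, other choices of probe set, a filter on both arrays (added after seeing the data), and thresholds of 1.5-fold and 3-fold. Python 3.11.15, pandas 2.3.3 and statsmodels 0.14.6 were used.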

Additional observations from a re-analysis of the deposited data

Results flagged for a closer look

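Probe sets given to several genes entered no count of genes. Of 14 such probe sets that include a listed interferon gene, 11 were above the floor. Of these, 2 were at least 2-fold higher with PP1, against 4.14% of all probe sets above the floor, those given to several genes included. The first of these passed the floor only through the PP1 array. The probe set shared by Trim34b and Trim34a had a signal of 68.2 with PP1 and 24.5 with DMSO, under the floor, for a log2 ratio of at least 1.10. A probe set shared by Ifi203, its pseudogene and further copies had 217.7 with PP1 and 99.9 with DMSO, a log2 ratio of 1.12. With 1 array per condition, neither was tested.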

How the results depend on the processing

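No paired analysis was possible because each condition has 1 array. Log2 ratios and counts here are relative to the median of all genes, which was -0.71 as deposited and -0.79 after scaling to the hybridization controls. None of the 10 genes at least 2-fold higher changed sign under any alternative, and Gbp2, Gbp6, Ifit1, Ifit3 and Stat2 were at least 2-fold higher in each setting that measured them. The count of 10 members was 5 with a floor at the 75th percentile (161.2), where dim DMSO signals shrink the ratios by construction. That floor gave 2 GTPases, 0 sensors and 0 transcription regulators, and a GTPase median of 0.87. Bst2, the 1 gene among other effectors, stood at 0.98 as deposited and 0.98 with the hybridization controls, leaving 0 genes there. Mx2, bounded by the lower floors of these settings, stood at 1.19 and 1.22, so the total stayed at 10. The median over probe sets gave 2 other effectors and 0 sensors, since Dhx58 was then at 0.68. At 1.5-fold, 24 members were higher, with 6 type I targets, 7 other effectors, 3 sensors, 5 GTPases and 3 transcription regulators. At 3-fold, 5 members were higher, with 1 type I target, 0 other effectors and 0 sensors. Over genes above the floor on both arrays, an alternative chosen after seeing the data, 10 members and 13 of the other interferon-induced genes were higher. Without a floor Mx2 stood at 3.74, from a DMSO signal of 4.305. Of all genes, 2064 were at least 2-fold higher without a floor, 111 with the 75th percentile floor, 1291 at 1.5-fold and 60 at 3-fold, against 366 as reported; unshifted, 50 were higher and 2883 lower as deposited. Signals near the floor limit Stat2, Dhx58, Oasl1, Oas2, Mx2 and Gm4951.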

Other observations

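Genes outside the list can be read by the same promoter element. Only the members were left out here, so the other interferon-induced genes described above could be among those counted. Of 334 measured genes that are not members and have an ISRE core match, 17 (5.09%) reached 2-fold higher and 1 (0.299%) reached 2-fold lower with PP1. Of 9433 such genes without a match, 260 (2.76%) reached 2-fold higher and 140 (1.48%) reached 2-fold lower. The median log2 ratio was 0.04 with a match and 0.00 without one, so most genes with these letters in their promoter lay with the bulk. For the STAT core the shares at least 2-fold higher were 3.03% with a match (792 genes) and 2.82% without (8975 genes). No difference was tested.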
